A study of Rattus norvegicus with 5 samples.

Results

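A set of 46 longer transcripts stood above the saline control ovary in every one of 4 cisplatin-treated rat ovaries. They were selected on measured values, out of 299341 transcripts listed in any library and 79921 of at least 1000 bases. A member had 1000 bases or more, at least 5 TPM in each treated library, and a log2(TPM + 1) value at least 1 above Control in each of them. TPM is a relative abundance that is divided by transcript length and adds up to 1000000 per library, so levels of different transcripts can be compared with each other. Since the differences from Control chose the members, they are given here as a description.

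Each of the 5 libraries came from 1 ovary, drawn at random from a group of 6 female Sprague Dawley rats. The rats were 10 to 12 weeks old. The Control rats had 5 injections of NaCl solution. The other groups had 3 or 5 weekly intraperitoneal doses of cisplatin at 3 mg/kg, as models of milder and more severe premature ovarian insufficiency. For each schedule there was an ovary without further treatment and one injected with PRP (platelet-rich plasma from donor rats) 1 week after the last dose, by laparotomy and followed by antibiotics. PRP ovaries were taken 2 weeks after PRP and the Control ovary 2 weeks after the last saline. For the ovaries with cisplatin alone, the sources used here give no time of collection. Surgery and antibiotics went with PRP and cannot be told apart from it, and with 1 ovary per group the treatment cannot be told apart from the animal.

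Cisplatin is a platinum drug that binds DNA and forms crosslinks, and it is known to be toxic to ovarian follicles, the units of an oocyte and the somatic cells around it. A gene commonly gives several transcripts that share exons, and a read from a shared stretch cannot be assigned to 1 of them with certainty. Programs that estimate transcript levels divide such reads among the candidates, so the level of 1 transcript can differ between samples while the level of its gene does not. PRP is a plasma fraction rich in platelets, which carry growth factors.

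The transcript identifiers are numbers that the files do not pair with gene names, so no gene, pathway or cell type marker could be assigned to the members, and the labelled tissue could not be checked against markers. The 2 identifiers printed below follow a fixed rule, and the other members are identified by their length, which differs for each of the 46. The total estimated count was 26383246 to 31822055 per library. Fragment length (transcript length minus effective length) was 229.9 bases in Control, 217.1 after 3 injections with PRP and 223.3 after 5 injections. It was shorter after 3 injections, at 186 bases, and after 5 injections with PRP, at 194 bases. The part of fragment length in the results below was not tested. In whole ovaries, more cells that hold a transcript and more transcript per cell cannot be told apart.

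The 46 members together made up 807 TPM in the Control library. Their sum was 5242 TPM after 3 injections, 3318 after 3 injections with PRP, 4675 after 5 injections and 4545 after 5 injections with PRP. Without the most abundant member the sums were 454, 3227, 2107, 3210 and 3055 TPM in the same order. That every such sum lies above Control follows from the rule. The median member stood at 3.48 TPM in Control. The medians were 31.0, 19.7, 33.4 and 22.2 TPM in the treated libraries, in the order above. Each member rested on at least 160 estimated counts in each treated library.

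**Figure D1:**
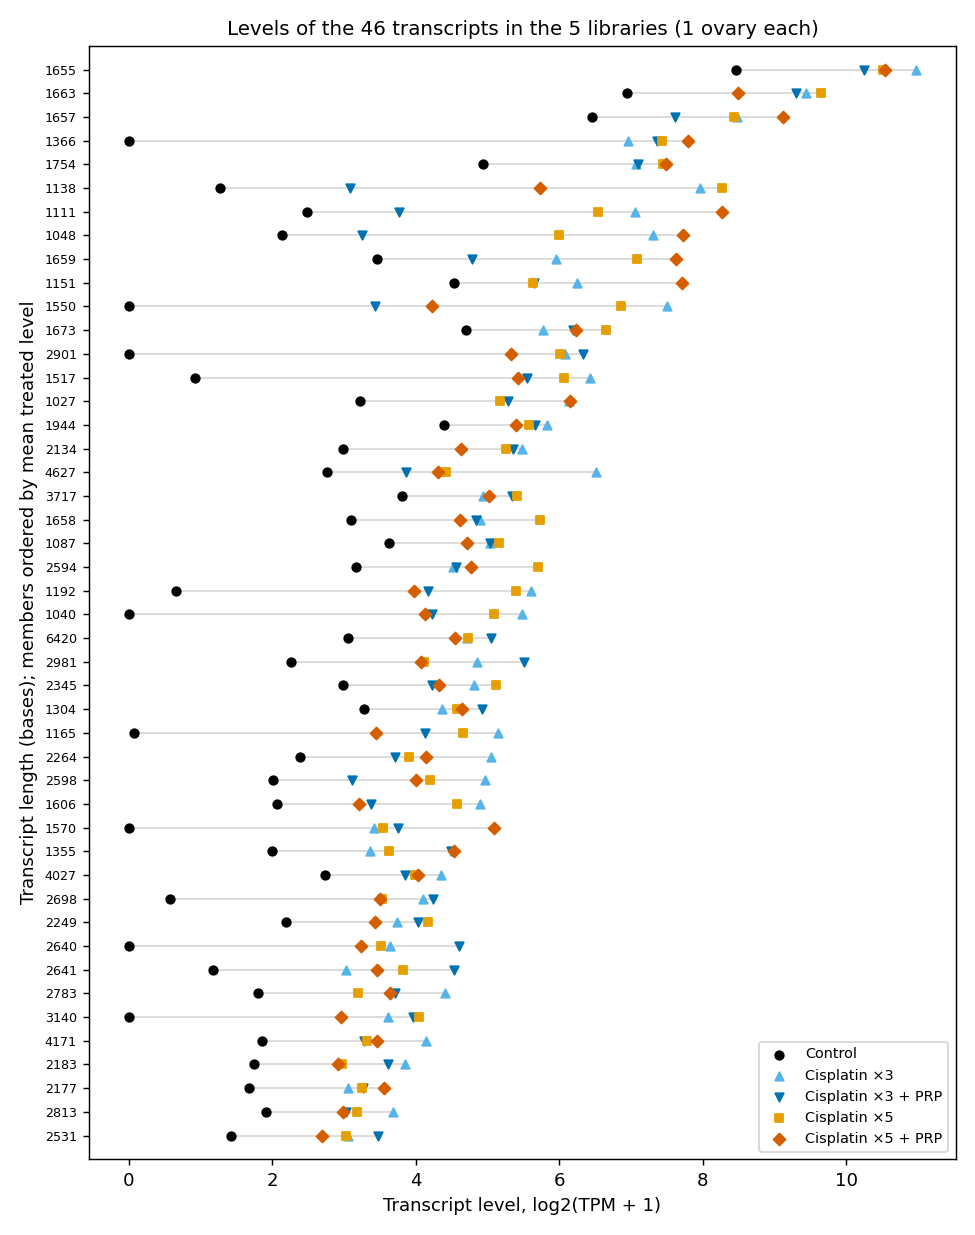
Level of each of the 46 members as log2(TPM + 1) in the 5 libraries, 1 row per transcript, labelled by its length in bases and ordered by its mean treated level. Black circles are Control, triangles are the 3-injection libraries without (pointing up) and with PRP (pointing down), squares 5 injections and diamonds 5 injections with PRP; the Control point lies at least 1 unit left of the others in every row because the members were chosen that way.

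Passing the rule was uncommon. Of 6999 transcripts with the same length minimum and 5 TPM in each treated library, members included, 0.657% were members. The 6999 share these minimums with the members and were not matched to them further. In each separate comparison with Control all 46 members were at least 2-fold higher by the rule. Among all transcripts of 1000 bases or more with 5 TPM in either library, 6.37% were at least 2-fold higher after 3 injections and 15.1% after 3 injections with PRP. The shares were 5.64% after 5 injections and 5.75% after 5 injections with PRP. The members' median differences were 2.49, 1.83, 2.15 and 1.94 log2 units, from 3 injections to 5 with PRP, and those of the 6999 were 0.33, 0.39, 0.23 and -0.06. All 4 comparisons use the same Control library, so a low value in that 1 library enters all of them.

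The member with the largest smallest difference, transcript_379255 of 1366 bases, was at a Control estimate that rounded to 0 counts. It was at 123 TPM after 3 injections (95% exact Poisson interval 119 to 127) and 164 TPM with PRP (160 to 169). After 5 injections it was at 172 TPM (167 to 177) and with PRP at 222 TPM (217 to 227). Against a floor of 3 counts in Control these levels were at least 1273-fold to at least 2294-fold higher. The 4 treated levels lay within 1.80-fold of each other, and none came near Control. Intervals and floors cover counting error only. The estimates of this transcript were not whole numbers, as happens when reads are divided between transcripts. Summed with the 5 identifiers on either side, it was at 1086 TPM in Control. In the treated libraries that sum was 1653, 1323, 1469 and 2042 TPM, from 3 injections to 5 with PRP. The sum did not meet the rule, and it can mix genes.

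Among members with whole estimates in all 5 libraries, the largest smallest difference belonged to transcript_266230, of 1658 bases. Its levels were 7.57 TPM in Control (6.73 to 8.49), 28.8 after 3 injections (27.1 to 30.5) and 27.7 with PRP (26.0 to 29.6). They were 52.4 TPM after 5 injections (50.0 to 54.99) and 23.6 with PRP (22.3 to 25.01). This is 3.12-fold to 6.92-fold above Control, with the highest level after 5 injections without PRP. Whole estimates are what counting gives when no read is divided between transcripts. The estimates of 2 other members were whole throughout. The transcript of 4171 bases was at 2.63 TPM in Control and 16.6, 8.68, 8.99 and 10.0 TPM in the treated libraries, from 3 injections to 5 with PRP. That of 2813 bases was at 2.75 TPM in Control and 11.9, 7.14, 8.11 and 6.93 TPM in the same order. Both were highest after 3 injections without PRP.

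Control levels differed widely among the members. In 7 of them the Control count rounded to 0. Of these, 6 were not listed in Control and were taken as 0. Their floors used length minus the Control fragment length. In 1 member the Control count was 1, and the other 38 had more than 3 counts. For those 38, the fold above Control ranged from 2.05 to 219 over the treated libraries, with a median smallest fold of 2.81 and a median largest fold of 6.47. The 7 members without Control counts had lengths of 1040, 1366, 1550, 1570, 2640, 2901 and 3140 bases, and were at least 117-fold to at least 2294-fold higher. None of the 7 had whole estimates in all libraries. Those of 1570 and 2901 bases gave whole sums with a neighbour, described below, and neither sum met the rule. For the others of the 7 no such sum was found. The member with 1 Control count, of 1165 bases, had the smallest of its 4 ratios after 5 injections with PRP. Against a Control estimate rounded to 1 count it was 252-fold higher there (counting interval 44.8 to 9968). Without rounding, its levels were 0.0511 TPM in Control and 9.86 TPM in that library, a smaller ratio. Most members were far less extreme: 14 of 46 had a smallest difference under 1.2 log2 units, and 12 had one of 2 or more.

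The most abundant member, of 1655 bases, was at 353 TPM in Control and 2015, 1211, 1465 and 1490 TPM in the treated libraries, in the order 3 injections, 3 with PRP, 5 and 5 with PRP. The next, of 1663 bases, was at 123 TPM in Control and 692, 632, 805 and 360 TPM. Behind it, that of 1657 bases was at 87.3 TPM in Control and 357, 196, 346 and 554 TPM. These 3 differed in where they peaked, after 3 injections, after 5 injections and after 5 injections with PRP. The longest member, of 6420 bases, was at 7.31 TPM in Control and 25.3, 32.0, 25.5 and 22.3 TPM. The steadiest, of 1754 bases, had treated levels within 1.34-fold of each other, at 133, 137, 174 and 179 TPM, against 29.7 in Control.

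Fractional estimates were common in this set. Whole estimates in all 5 libraries were found for 3 of 46 members (6.52%), against 20.7% of the 6999 transcripts of the same minimum length and level. Under 2000 bases the numbers were 1 of 24 members and 25.2% of the 2015 transcripts, and from 2000 bases 2 of 22 members and 19.0% of 4984. To see with which transcripts a member may share reads, runs of consecutive identifiers were searched for sums that were whole in all 5 libraries although the member's own estimates were not. Such a run of 2 to 10 identifiers was found for 7 members (15.2%), against 14.8% of the 6999. For 36 members (78.3%) no run was found, against 58.8% of the 6999.

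In 5 of these 7 runs the sum did not meet the rule that the member met. The clearest case was the member of 2901 bases, whose estimates were whole when summed with 1 neighbour of 2854 bases. The member had 0 of the pair's counts in Control and 40.1%, 41.8%, 44.1% and 43.0% of them in the treated libraries, in the order 3 injections, 3 with PRP, 5 and 5 with PRP. The neighbour was at 151 TPM in Control and 101, 113, 81.6 and 52.7 TPM. Their sum was 151 TPM in Control and 168, 192, 145 and 91.9 TPM, or 1.11, 1.27, 0.958 and 0.607 times Control. The member was thus at least 950-fold above Control while the pair stayed within 2-fold of it in all 4 comparisons.

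The pair of 1570 and 1585 bases gave a similar picture. The member, of 1570 bases, took 0% of the pair's counts in Control and 100%, 42.6%, 29.4% and 84.0% in the treated libraries. The sum was 34.0 TPM in Control and 9.72, 29.0, 35.9 and 39.3 TPM, or 0.286, 0.853, 1.06 and 1.16 times Control. For the member of 2264 bases, paired with one of 2354 bases, the member's share was 33.6% in Control and 69.8% to 88.1% in the treated libraries. That sum was 3.40-fold above Control after 3 injections and 1.40-fold, 1.58-fold and 1.54-fold in the other libraries. The run of 4 that holds the member of 2183 bases was 1.32-fold to 1.78-fold above Control, and the pair that holds the member of 2345 bases 1.66-fold to 2.33-fold.

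In the other 2 runs the sum met the rule as the member did. The pair of 1304 and 1468 bases stood at 11.1 TPM in Control and 24.5, 32.3, 26.1 and 27.1 TPM in the treated libraries. The member of this pair held 75.8% of the counts in Control and 77.7% to 89.6% in the others. The run of 4 with the member of 2598 bases was at 6.98 TPM in Control and 50.1, 20.6, 43.6 and 27.3 TPM, 2.96-fold to 7.18-fold higher. Its other transcripts had 886, 6641 and 6388 bases, and together they were at 3.94 TPM in Control and 19.7, 13.0, 26.3 and 12.2 TPM. Of the 7 members whose sums could fail the rule, 2 thus met it as a sum. The 3 members of whole estimates have no such sum, and meet the rule because it chose them.

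**Figure D2:**
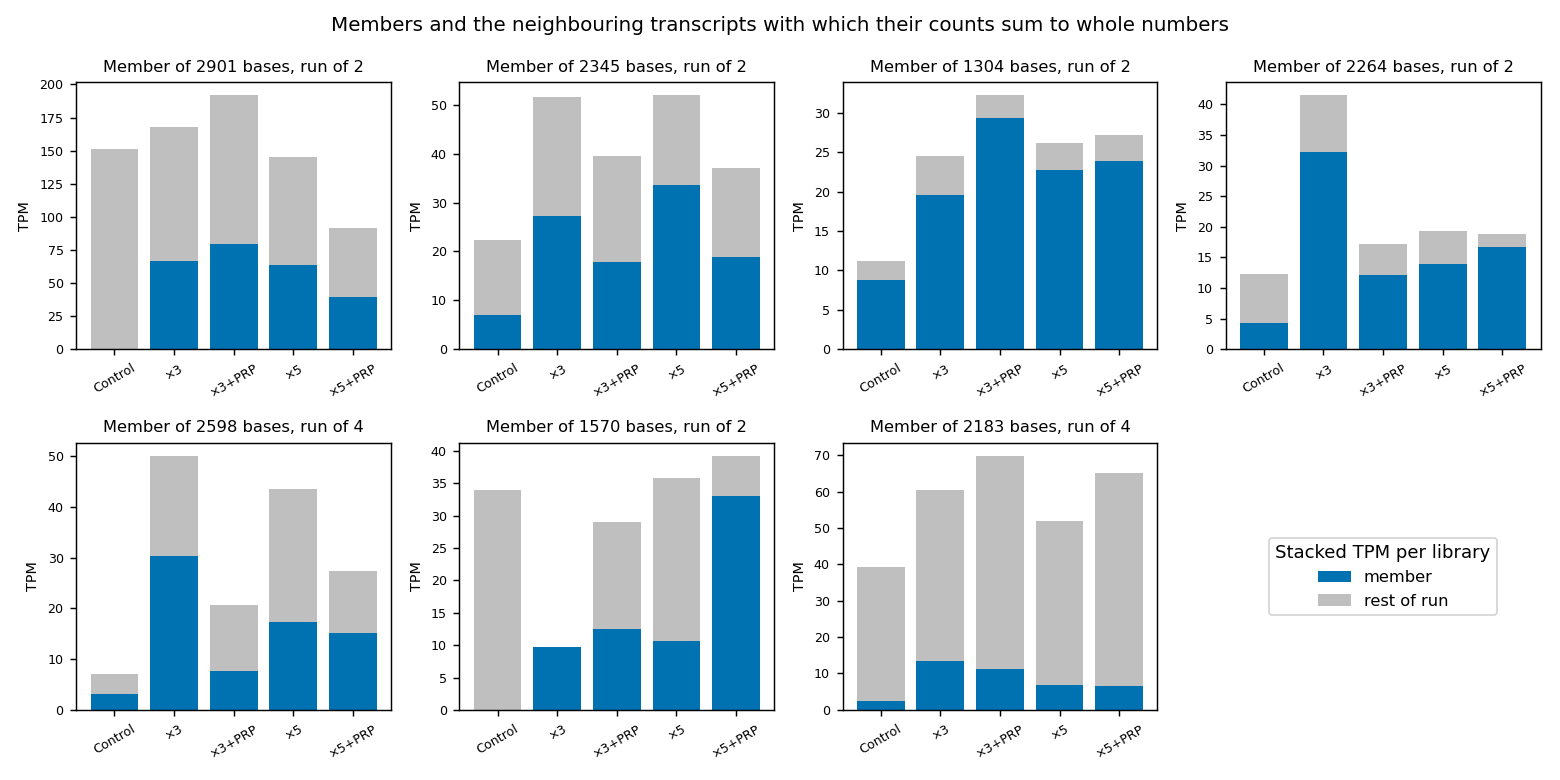
TPM of 7 members (blue) in the 5 libraries, with the rest of the run of consecutive identifiers whose estimated counts add up to whole numbers with theirs stacked on top (grey). The pair with the member of 2901 bases had a total of 151 TPM in Control and 91.9 to 192 TPM in the treated libraries, while the run with the member of 2598 bases was at 6.98 TPM in Control and at 20.6 TPM or more in the others.

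A wider and cruder sum, over each member and the 5 identifiers on either side, met the rule for 7 of 46 members. Whether neighbours in number belong to 1 gene is not stated in the sources used here, and such a sum can mix genes. No share of the transcripts of the same minimum length and level is given for it. Among the 7 was the most abundant member, of 1655 bases. Its sum was 358 TPM in Control and 2019, 1220, 1472 and 1494 TPM in the treated libraries. Of this the member itself made up 353 TPM in Control and 2015, 1211, 1465 and 1490 TPM in the treated libraries. The member of 1517 bases was also among the 7. That member was at 0.892 TPM in Control and 85.5, 46.1, 66.2 and 41.8 TPM in the treated libraries. Its sum was 1.21 TPM in Control and 85.5, 46.8, 66.2 and 42.6 TPM. In both cases the member made up nearly all of the treated sums. That these sums met the rule thus follows largely from the choice of the members.

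Differences between treated libraries did not enter the rule, although each treated level had to pass the same thresholds. With PRP after 3 injections, 12 of 46 members were at least 2-fold lower than without PRP and 2 were at least 2-fold higher, or 26.1% and 4.35%. Of the 6999 transcripts of the same minimum length and level, 3.91% were lower and 4% higher. The median difference was -0.20 log2 units in the members and 0.05 in the 6999. The members' median minus that of the 6999 was -0.25, and -0.23 to -0.26 under the other scalings tried. The 2 libraries also differed in fragment length, at 186 bases without and 217.1 with PRP.

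With PRP after 5 injections, 8 members were at least 2-fold lower and 4 at least 2-fold higher, or 17.4% and 8.70%, against 11.6% and 1.26% of the 6999. The median was -0.18 in the members and -0.27 in the 6999. The sign of the members' median turned with the scaling, to 0.34 with median-of-ratios scaling, and the median of the 6999 turned with it, to 0.24. The counts turned as well, to 2 lower and 8 higher with median-of-ratios scaling, 4 lower and 5 higher with quantile normalization, and 4 lower and 7 higher with CPM. Relative to the 6999 the members stood 0.03 to 0.10 higher under all scalings tried. Fragment length went the other way here, from 223.3 bases without to 194 with PRP.

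Taking both schedules, 5 members were at least 2-fold lower with PRP each time, 0 were higher each time, and 2 were lower after 3 and higher after 5 injections. The corresponding shares of the 6999 were 1.16%, 0.157% and 0.1%, against 10.9%, 0% and 4.35% of members. These counts also moved with the scaling. Lower each time were 2 members with median-of-ratios scaling, 3 with quantile normalization and 4 with CPM, against 0.514%, 0.772% and 0.857% of the 6999. Those of 1138 and 1550 bases were among them under each scaling. Under the first 2 of these scalings 1 member, of 1355 bases, was higher each time. Lower after 3 and higher after 5 injections were 3, 2 and 4 members in that order, always with those of 1048 and 1111 bases. Within 2-fold in both were, without other scaling, 27 members (58.7%), against 81.6% of the 6999. These counts rest on 4 single ovaries, and no spread between animals is known for them.

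**Figure D3:**
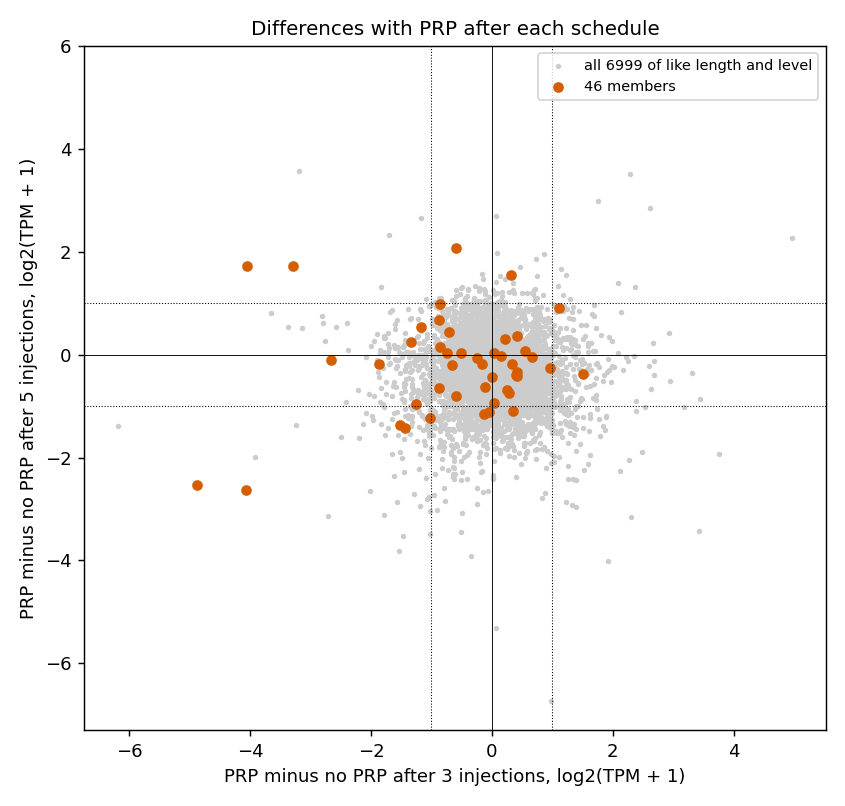
Difference in log2(TPM + 1) with PRP after 3 injections (horizontal axis) and after 5 injections (vertical axis) for the 46 members (orange) and all 6999 transcripts of the same minimum length and level (grey), with dotted lines at 2-fold. A pair of members lies far to the lower left and another to the upper left, at differences of -3.29 to -4.88 after 3 injections.

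The 5 members lower with PRP each time had 1138, 1165, 1192, 1550 and 1606 bases. Of these, the member of 1165 bases passed 2-fold each time under none of the 3 other scalings. That of 1606 bases did so with CPM alone, and that of 1192 bases with CPM and quantile normalization. That of 1606 bases was at 3.20 TPM in Control and 28.8, 9.38, 22.8 and 8.25 TPM in the treated libraries, from 3 injections to 5 with PRP. Those of 1165 and 1192 bases have identifiers close to each other and to that of the member of 1040 bases, whose difference after 5 injections was -0.96. The member of 1192 bases was at 0.578 TPM in Control and 47.6, 17.0, 41.1 and 14.7 TPM in the treated libraries, in the order 3 injections, 3 with PRP, 5 and 5 with PRP. That of 1040 bases was at 0 in Control and 43.6, 17.7, 33.1 and 16.5 TPM, and that of 1165 bases at 0.0511 in Control and 34.6, 16.5, 24.4 and 9.86 TPM. All 3 had the same order of treated libraries, highest after 3 injections, then 5 injections, 3 with PRP and 5 with PRP. Their estimates were fractional, and no run with whole sums was found for any of them. Summed with the 5 identifiers on either side, that of 1165 bases was at 462 TPM in Control and 532, 150, 598 and 220 TPM. For that of 1192 bases the sum was 362 TPM in Control and 468, 198, 571 and 256 TPM. For that of 1040 bases it was 417 TPM in Control and 873, 565, 814 and 337 TPM. These sums overlap and can mix genes, and none met the rule.

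A few members varied far more among the treated libraries than the rest. The highest treated level was over 4-fold above the lowest in 7 of 46 members (15.2%), against 5.14% of the 6999, and under 2-fold above it in 18 (39.1%, against 62.7%). Of the 7, 6 had their lowest treated level after 3 injections with PRP, and 6 were shorter than 2000 bases. Together they held 47.5 TPM in Control and 944, 128, 783 and 1014 TPM in the treated libraries.

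Of these, the member of 1138 bases was at 1.41 TPM in Control, 249 after 3 injections and 7.49 with PRP, and at 308 after 5 injections and 52.4 with PRP. It was thus 33.3-fold and 5.88-fold lower with PRP. The member of 1550 bases was at 0 in Control, at 180 and 9.77 TPM without and with PRP after 3 injections, and at 116 and 17.8 TPM after 5. It was 18.4-fold and 6.52-fold lower with PRP. Both estimates were high in the 2 libraries of cisplatin alone and low in those with PRP. They were fractional, and no run with whole sums was found for either. Summed with the 5 identifiers on either side, that of 1138 bases was at 350 TPM in Control. In the treated libraries that sum was 376, 146, 522 and 313 TPM, from 3 injections to 5 with PRP. For that of 1550 bases the sum was 216 TPM in Control and 468, 153, 363 and 332 TPM. Neither sum met the rule, and such sums can mix genes.

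The members of 1048 and 1111 bases showed another pattern. The former was at 3.38 TPM in Control, 157 after 3 injections, 8.50 with PRP, 63.1 after 5 injections and 210 with PRP. The latter was at 4.59, 132, 12.6, 92.6 and 309 TPM in the same order. With PRP they were 18.5-fold and 10.5-fold lower after 3 injections, and 3.33-fold and 3.34-fold higher after 5. The member of 1659 bases was at 10.0 TPM in Control and 60.9, 26.5, 135 and 197 TPM in the treated libraries, and that of 1151 bases at 22.3 in Control and 74.8, 49.1, 48.7 and 209 TPM, both highest after 5 injections with PRP. The only long one among the 7, of 4627 bases, was at 5.77 TPM in Control, 90.8 after 3 injections and 13.5, 20.5 and 18.9 TPM in the other treated libraries.

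**Figure D4:**
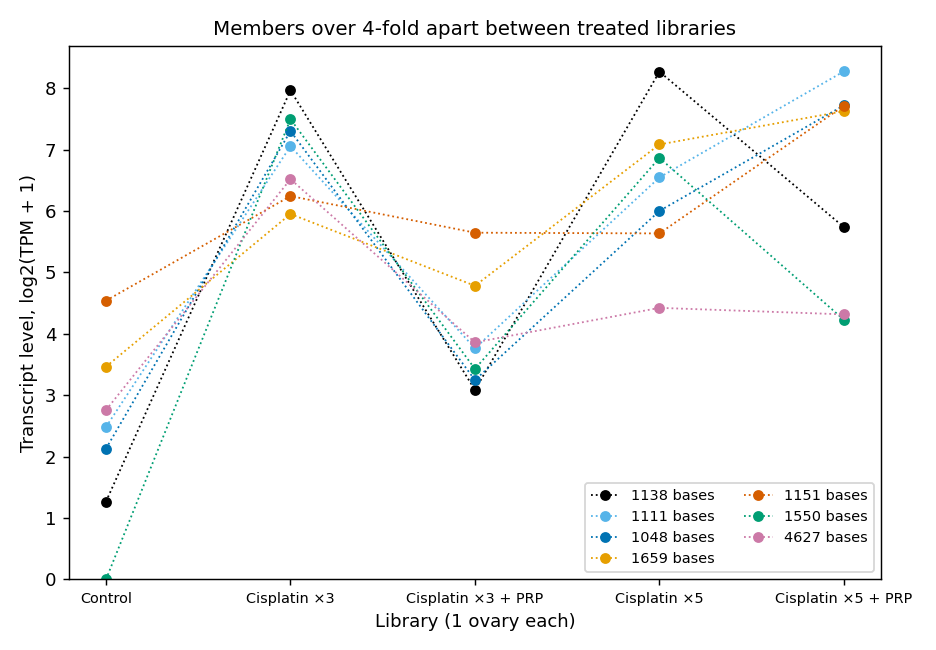
Level as log2(TPM + 1) of the 7 members whose highest treated level was over 4-fold above the lowest, in the 5 libraries; dotted lines only join the points of 1 transcript. In 6 of the 7 the 3-injection PRP library holds the lowest treated point.

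Only 2 members were at least 2-fold higher with PRP after 3 injections. The member of 2641 bases was 3.11-fold higher, at 7.15 and 22.2 TPM, and 0.758 times as high after 5, at 13.2 and 9.99 TPM. That of 1355 bases was higher with PRP after both schedules, at 9.31 and 21.4 TPM after 3 injections and 11.3 and 22.1 TPM after 5. In Control these were at 1.27 and 2.99 TPM.

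The schedules were compared without and with PRP. After 5 injections 2 members were at least 2-fold higher than after 3 and 4 were lower, or 4.35% and 8.70%, against 1.7% and 2.1% of the 6999. The median difference was -0.17 log2 units, and -0.10 in the 6999. Between the 2 PRP libraries 7 members were at least 2-fold higher after 5 injections and 4 were lower, or 15.2% and 8.70%, against 1.73% and 19.7% of the 6999. There the median was -0.05 in the members and -0.41 in the 6999. The comparison of the PRP libraries was made on TPM alone. Against Control, the median of the 6999 in the 5-injection PRP library was -0.06, and 0.22 with median-of-ratios scaling. In the 3-injection PRP library it was 0.39, and 0.08 with that scaling. In both comparisons of the schedules the fragment lengths of the libraries differed, as given above.

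The library that held the highest treated level differed between members. It was the 3-injection library for 17 members (37.0%, against 29.7% of the 6999), that with PRP for 8 (17.4%, against 42.3%), the 5-injection library for 10 (21.7%, against 13.8%) and that with PRP for 11 (23.9%, against 14.1%). The lowest treated level was in the 5-injection PRP library for 20 members (43.5%, against 58.2%) and in the 3-injection PRP library for 13 (28.3%, against 13.3%). These shares were taken on TPM alone and were not repeated under other scalings.

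The members were shorter than the 6999 transcripts. The median of the mean treated level was 28.9 TPM in the members and 18.2 TPM in the 6999. In Control the medians were 3.48 and 15.3 TPM in the same order. The rule used these levels to choose the members, so both are given as a description. The members' median length was 1849 bases, from 1027 to 6420, against 2854 in the 6999. Under 2000 bases lay 24 members (52.2%, against 28.8%), from 2000 to under 4000 bases 18 (39.1%, against 41.3%), and from 4000 bases 4 (8.70%, against 29.9%). With no length minimum the same rule took 264 transcripts, so most transcripts with this pattern were shorter than 1000 bases. So were most transcripts listed in any library, where 79921 of 299341 had 1000 bases or more. No share among shorter transcripts at 5 TPM is given here.

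Values just on either side of the thresholds were close together. The members nearest the log2 threshold had smallest differences of 1.00, 1.07 and 1.08, and the nearest transcripts outside had 0.98, 0.97 and 0.97. At the level threshold, the lowest treated levels were 5.46, 6.54 and 6.80 TPM inside and 4.85, 4.70 and 4.68 TPM outside. At the length threshold the members had 1027, 1040 and 1048 bases, and the nearest shorter transcripts 990, 980 and 910 bases. With the lower Poisson bound in each treated library and the upper bound in Control, 29 of the 46 met the rule.

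The set depended on each treated library. With the rule applied to 3 treated libraries only, the number was 79 without the 3-injection library, 78 without the 3-injection PRP library, 74 without the 5-injection library and 94 without the 5-injection PRP library. Applied to the treated libraries nearest to Control in fragment length alone (5 injections, and 3 with PRP), it took 255. No other pair of libraries is given for comparison. The number was highest without the 5-injection PRP library, in which the 6999 had a median of -0.06 against Control. That median moved with the scaling, to 0.22 with median-of-ratios scaling, 0.16 with quantile normalization and 0.05 with CPM.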

How the data were processed

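Stranded mRNA libraries of 5 rat ovaries were sequenced, per the labels' protocols. Per the submitters' processing notes, HISAT2, fastp, MultiQC and FastQC were used. The sources used here do not name the program behind the abundance tables, its transcript set or a genome build. Per the file headers, the deposited tables hold an expected (estimated) count, an effective length and a TPM score per transcript. The deposited TPM score was over 100 times too large for 61 to 110 transcripts per library. TPM was therefore recomputed from estimated counts and effective lengths to a total of 1000000. The deposited estimated count was divided by 1000 for 0 to 5 transcripts per library, where it was over 100 times too large against the deposited TPM. After division 0 to 4 per library still differed by over 1% from the deposited TPM. No member was among these transcripts. Fragment length is the median difference between length and effective length over transcripts longer than 5000 bases. Unlisted transcripts were taken as 0.

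Levels were compared as log2(TPM + 1), at a threshold of 2-fold, with Python 3.11.15, pandas 2.3.3 and SciPy 1.17.1. The comparison set was all transcripts of 1000 bases or more with 5 TPM in each treated library. Estimates were called whole within 1e-06, and sums over runs of up to 10 identifiers within 0.05, or the rounding of the printed digits up to 0.06. With 1 library per group no test was made and no p-value is given. Depth sets exact Poisson 95% intervals on estimated counts. The counting and run-finding steps were tested on simulated data. Members, lists and tests were chosen with earlier results of these data known. The 2 printed identifiers are the members with the largest smallest difference from Control, with and without whole estimates in all libraries. Further members were picked by rank, except those described for their runs, neighbours or range, which were picked after their values were seen. Gene and marker lists could not be evaluated. The alternatives were other scalings (median-of-ratios factors came from transcripts with 5 TPM in any library and a count of 1 in all), pseudocounts, minimum levels, lengths and sets of libraries, and summed transcripts.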

Additional observations from a re-analysis of the deposited data

Results flagged for a closer look

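Of the members, 2 were at least 2-fold apart with PRP in opposite directions after the 2 schedules. They are those of 1048 and 1111 bases, lower with PRP after 3 injections and higher after 5. Of the 6999 transcripts of the same minimum length and level, 1.13% did so in either order. With other scalings 2 to 4 members did so in this order, those of 1048 and 1111 bases each time. The difference between the schedules was not tested, since it rests on 4 single ovaries.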

How the results depend on the processing

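The count of 46 was 38 with median-of-ratios scaling (33 of them members), 53 with quantile normalization (44), 63 with a pseudocount of 0.1 and 46 with TPM as deposited. It was 75 with CPM (32 members), which is not divided by length. By construction it was 86 and 18 at minimum levels of 1 and 20 TPM, 264 with no length minimum, 22 from 2000 bases and 20 at 1.5 log2 units. Leaving a treated library out of the rule gave 79, 78, 74 and 94, and the 2 libraries near Control in fragment length gave 255. By construction these could not fall below 46. The count was 29 with counting bounds, 3 for whole estimates, which the rule itself chose, and 5 when those were joined by the 2 members that met the rule as a sum of a read-sharing run. Among alternatives added after the data were seen, 7 were left with windows of 11 identifiers, each holding the member itself. Also added then, centring each comparison on the 6999 left 29.

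The median schedule difference was -0.50 in the 3 members with whole estimates and 0.068 in the 18 at 20 TPM or more, the opposite sign. Between the PRP libraries, added later, 7 members were higher. With PRP after 3 injections, CPM gave 1 higher member. With PRP after 5 injections the median turned to 0.34 with median-of-ratios scaling (8 higher, 2 lower), 0.064 with quantile normalization (5 higher, 4 lower) and 0.17 with CPM (7 higher, 4 lower). Also added later were the counts for both schedules together. With median-of-ratios scaling, quantile normalization and CPM, 2, 3 and 4 members were lower with PRP each time, and 1, 1 and 0 were higher each time. Lower after 3 and higher after 5 injections were 3, 2 and 4. The causes were not tested. No paired analysis was possible because each group has 1 library, and no replicate could be left out. Estimates were not whole for 43 of the 46 members, and for 36 no run of neighbours resolved them. Low counts limit the Control side: 8 members had 0 or 1 Control counts. The total estimated count was 27088350 in Control and 26383246 after 5 injections, the lowest of the libraries. No member had under 160 estimated counts in a treated library.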

Other observations

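Members of nearly equal length made up much of the summed level. Between 1650 and 1679 bases lay 6 of 46 members (13.0%), with 1655, 1657, 1658, 1659, 1663 and 1673 bases, against 1.24% of the 6999 transcripts of the same minimum length and level. This band was chosen after the lengths were seen. The 6 held 606 of the 807 TPM of all members in Control, or 75.01%. They held 3207 TPM after 3 injections, 2166 with PRP, 2903 after 5 injections and 2699 with PRP, or 59.4% to 65.3% of the members' sum. They include the 3 most abundant members and the whole-estimate transcript_266230. The member of 1673 bases was at 25.1 TPM in Control and 53.8, 72.5, 99.6 and 74.0 TPM in the treated libraries, in the order 3 injections, 3 with PRP, 5 and 5 with PRP. Whether the 6 share sequence cannot be read from the files, which hold no sequences.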
